A study of Mus musculus with 2 samples.

Results

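The cytochrome P450 enzymes were followed in primary epidermal keratinocytes of K14-caSmad1 mice and of wild-type mice. The members were the gene spots of a whole-genome mouse oligonucleotide array whose gene name reads Cyp, a number, a letter and a number, with the sterol demethylase gene Cyp51 left out. This rule, which uses no measured value, gave 80 of the 27975 gene names on the array, on 113 of 41174 gene probes, each of the 113 spotted once per array. K14-caSmad1 mice carry a transgene for a constitutively active form of Smad1, a transcription factor of bone morphogenetic protein signalling. By its name the transgene is driven by the keratin 14 promoter, which is active in basal keratinocytes. Mice of both groups were of the FVB/NJ strain and 20 days old. RNA of both groups was hybridised together on 2 arrays, labelled biological replicates 1 and 2, with wild type in the Cy3 dye and K14-caSmad1 in Cy5 both times. No dye was swapped, so a gene's difference cannot be told apart from a dye effect on its probe. How many animals entered each RNA sample is not stated in the labels.

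P450 enzymes are haem proteins that use oxygen and electrons from a reductase to oxidise small molecules. Families 1 to 3 act mostly on foreign compounds and on arachidonic acid, family 4 hydroxylates fatty acids, and the higher-numbered families make or break down steroids, bile acids, vitamin D and retinoic acid. In epidermis they are known for the acylceramide lipids of the skin barrier, for arachidonate products made by differentiating keratinocytes, and for the control of retinoic acid and vitamin D.

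Most P450 genes gave no signal above background in these keratinocytes. A probe was tested when it was well above background, as marked by the scanner software, on both arrays in at least 1 of the 2 channels. That held for 25 of 113 P450 probes (22.1%), against 15127 of all 41174 gene probes (36.7%). The 25 probes stand for 23 genes. In 17 of these 23 genes both channels were above background on both arrays. Cyp2d9, Cyp3a16, Cyp4f13 and Cyp4f16 were above background on both wild-type arrays and on neither K14-caSmad1 array. Cyp11b2 and Cyp4f15 were above background on both K14-caSmad1 arrays and on 1 wild-type array. The wild-type-only pattern held for 4 of 113 P450 probes and for 1236 of all 41174 gene probes. Both K14-caSmad1 arrays but not both wild-type arrays passed for 3 of 113 and for 932 of 41174. Negative control spots had an SD of 11.1 and 10.8 in Cy3 and of 52.7 and 34.4 in Cy5. The 2 channels thus did not have the same spread at background. Of the remaining 57 genes, Cyp2d12, Cyp8b1, Cyp2j13 and Cyp27b1 passed on single arrays only, and 53 passed on none. Members at background included all 11 members of the Cyp2c subfamily, the 4 Cyp2a members, Cyp1a1 and Cyp1a2, every Cyp4a member, Cyp2e1, Cyp26a1, Cyp24a1, Cyp2r1, Cyp27a1, Cyp46a1, Cyp7a1, Cyp7b1, Cyp20a1, Cyp2u1, Cyp11a1, Cyp19a1 and Cyp21a1. These were not detectable at this signal, which does not show that the genes are silent.

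The 2 arrays repeated each other closely. Over the 12287 single-spot probes with both channels above background, their log2 ratios differed with an SD of 0.0946, and 0.107 was predicted by the scatter among repeated spots of 94 probes. The means of those repeated probes gave an SD of 0.0519, with 0.0347 predicted. On single spots the arrays thus differed by no more than the scatter among spots predicts, but on the means of repeated probes by more. The 2 measures do not settle whether the arrays hold separate animals, and treating both as 1 sample was the cautious choice. Values below are given for each array, or as the mean of both, with no error between animals, and limma's adjusted p says only how well the arrays repeated. No tested P450 gene changed sign between the arrays, and their ratios differed by at most 0.18 on the log2 scale (median difference 0.04). In bulk RNA, fewer cells of a type and less RNA per cell cannot be told apart.

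Of the 23 tested P450 genes, Cyp2g1 and Cyp2j6 were at least 2-fold higher in K14-caSmad1 on both arrays and 0 were 2-fold lower. Over all 11752 genes tested, 4.08% were 2-fold higher and 9.81% were 2-fold lower. The 2 members make up 8.70% of those tested, and with counts this small that share is no result about the family. Of all genes past 2-fold, 29.4% were higher, a split that became 40.1% with the scanner's processed signals and 57.8% with median centring, which moved the median of all genes from -0.03 to 0.22. By limma's adjusted p under 0.05, 10 of the 23 were higher and 10 lower, and over all genes 40.8% were higher and 46.3% lower, so the share passing (87.0%) was that of all genes (87.1%). The median log2 ratio of the 23 was -0.03, and that of all genes tested was -0.03 as well. Without any filter on signal, the median over all 80 members was -0.04, with 36 above 0 and 44 below. A gene that passed through 1 channel alone enters already differing between the channels. With both channels required, 17 members had a median of 0.16, with 9 above 0 and 8 below, and 9913 genes had a median of 0.01.

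**Figure D1:**
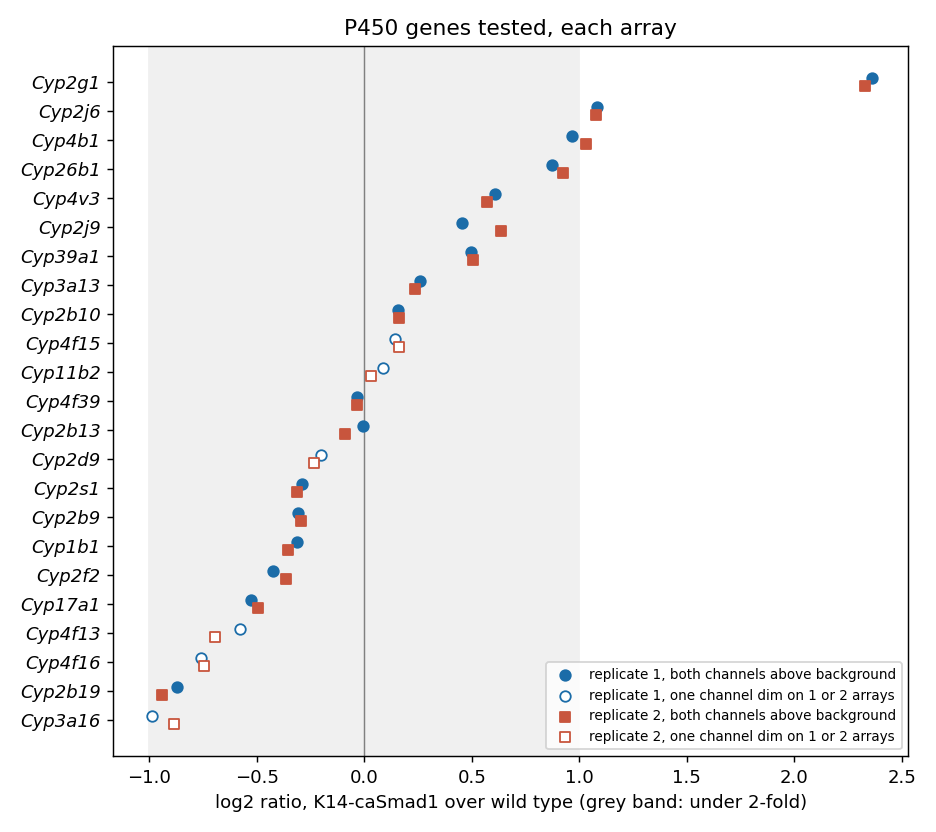
The 23 tested P450 genes on each array, by log2 ratio (K14-caSmad1 divided by wild type). Circles are replicate 1 and squares replicate 2, open symbols mark genes with a channel not above background on every array, and the grey band is the range under 2-fold. Only Cyp2g1 and Cyp2j6 lie outside the band on both arrays, at mean ratios of 2.35 and 1.08, and paired symbols lie within 0.18 of each other.

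Cyp2g1 differed most among the tested P450 genes. It encodes a P450 best known from the olfactory mucosa of rodents. Its brighter probe had a normalized log2 signal of 9.74 in wild type on both replicates, and of 12.10 and 12.07 in K14-caSmad1 on replicates 1 and 2. The K14-caSmad1 values thus stood far above the wild-type values on both arrays. The log2 ratios were 2.36 and 2.33, a 5.09-fold higher mean level (limma adjusted p = 2.0e-05), which ranked 4 among the 11752 genes. A second Cyp2g1 probe lies 6428 bases away and was above background on 1 K14-caSmad1 array only. It was therefore not tested, and its log2 ratios, 0.41 and 0.45, had the same sign. Both sequences are shown because the largest difference of the family rests on the first of them, chr7:27606111-27606170 on the plus strand (mm9), and the second, chr7:27599683-27599742, carries the same gene name. Which exons the probes lie in was not analysed here.
Cyp2g1 probe A_51_P137452: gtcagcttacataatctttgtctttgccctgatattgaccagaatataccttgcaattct
Cyp2g1 probe A_52_P481346: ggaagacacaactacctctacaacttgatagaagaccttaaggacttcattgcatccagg

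The nearest tested P450 gene to Cyp2g1 was Cyp2b19, while Cyp2a5, whose probe is nearer, was at background. Cyp2b19 encodes an arachidonate epoxygenase of differentiating keratinocytes. Its log2 signal was 14.76 and 14.71 in wild type and 13.89 and 13.77 in K14-caSmad1 on replicates 1 and 2. The log2 ratios were -0.87 and -0.94 (mean -0.91, 1.87-fold lower, limma adjusted p = 8.7e-05), just short of 2-fold. This probe lies at chr7:27557410-27557469 (mm9), 48.7 kb from the Cyp2g1 probe. A second Cyp2b19 probe at chr7:27550443-27550502, was above background in K14-caSmad1 only and was at least 1.23-fold higher there (log2 ratios 0.46 and 0.37). The probes of this gene therefore disagreed in direction, and their mean was -0.25. The second was dim, with a log2 signal of 8.97 and 8.95 in K14-caSmad1, against 13.89 and 13.77 for the first. The 2 probes thus do not weigh alike. The sequences of the 2 probes, both on the plus strand, share no run of 15 bases.
Cyp2b19 probe A_51_P352763: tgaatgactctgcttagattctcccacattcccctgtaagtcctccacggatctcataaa
Cyp2b19 probe A_52_P421626: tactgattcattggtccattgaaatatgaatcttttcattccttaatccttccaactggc

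Both genes belong to a chromosome 7 cluster of 12 members on the array, of which 7 were tested. Cyp2g1 was the only one of the 7 that was 2-fold higher on both arrays. Cyp2s1 (-0.30), a P450 of skin and other epithelia, Cyp2b9 (-0.30) and Cyp2f2 (-0.39), the latter best known from airway epithelium, had mean log2 ratios below 0. Cyp2b10 (0.16), a xenobiotic-induced liver enzyme, and Cyp2b13 (-0.05) were near 0. With median centring Cyp2s1 was 0.01 and Cyp2b9 was -0.004. The Cyp2b13 ratio did not pass limma's threshold (adjusted p = 0.247) and its sign turned under other processing. Cyp2b10 and Cyp2b9 stood apart in how their signal varied between arrays: Cyp2b10 read 8.95 in wild type and 9.11 in K14-caSmad1 on replicate 1, but 10.20 and 10.36 on replicate 2. Cyp2b9 read 10.06 and 9.75 on replicate 1 and 10.79 and 10.49 on replicate 2. Both channels of a spot rose together, so the ratios held while the levels moved by up to 1.25 and 0.74, against at most 0.50 for every other tested P450 gene.

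**Figure D2:**
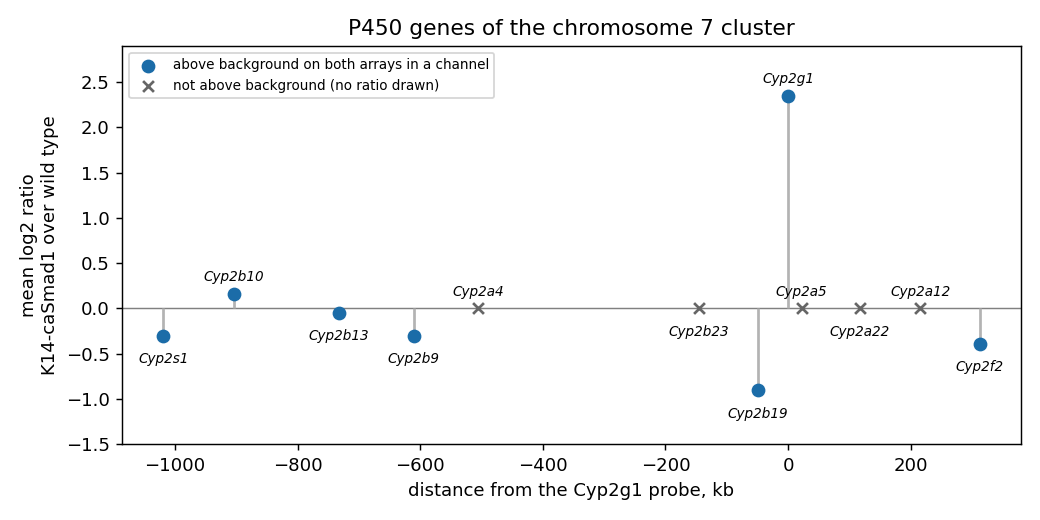
Mean log2 ratio (K14-caSmad1 divided by wild type) for the 12 P450 genes of the chromosome 7 cluster against distance from the Cyp2g1 probe in kb (mm9). Points are the 7 tested genes and crosses the 5 genes not above background on both arrays of a channel, for which no ratio is drawn. Cyp2g1 (2.35) and Cyp2b19 (-0.91), 48.7 kb apart, lie on opposite sides of 0.

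Promoters of 19 of the 23 tested genes were in the RefSeq table used (GRCm38.p6, 250 bases before to 50 after the start), and the Cyp2g1 promoter was not among them. The palindrome GGCGCC, a preferred letter string of Smad1, was in 0 of these 19 windows and in 11.9% of all 32851 promoters. The dioxin-response core GCGTG, searched on both strands, was in 6 of 19 and in 32.4% of all. The nuclear receptor half-site AGGTCA, also searched on both strands, was in 4 of 19 and in 16.3% of all. The TATA string TATAAA, likewise on both strands, was in 3 of 19 and in 13.6% of all. The 4 with the half-site were Cyp2b13, Cyp2b9, Cyp2b19 and Cyp2f2, all of the chromosome 7 cluster. They are shown with the half-site in capitals, on the plus strand at GRCm38.p6 positions chr7:26061337-26061382, chr7:26173251-26173296, chr7:26757001-26757046 and chr7:27119714-27119759, to show how alike the 3 Cyp2b windows are. The match is a description of these letters.
Cyp2b13: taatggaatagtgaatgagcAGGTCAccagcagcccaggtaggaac
Cyp2b9: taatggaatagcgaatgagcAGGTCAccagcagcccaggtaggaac
Cyp2b19: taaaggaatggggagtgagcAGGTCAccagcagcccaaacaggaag
Cyp2f2: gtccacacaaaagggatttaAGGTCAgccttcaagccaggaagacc

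Of the Cyp2j subfamily, which epoxidises arachidonic acid, Cyp2j6 was 2-fold higher on both arrays. It had a log2 signal of 10.12 and 10.21 in wild type and of 11.20 and 11.29 in K14-caSmad1. The log2 ratios were 1.08 on both arrays (2.11-fold, limma adjusted p = 4.7e-05). Without background correction the mean was 0.95, and with normexp on all spots it was 0.86, both below 2-fold. A second Cyp2j6 probe was not above background. Cyp2j9, whose probe is 42.8 kb away on chromosome 4, had ratios of 0.46 and 0.64, short of 2-fold. Cyp2j5, Cyp2j11 and Cyp2j13 of the same cluster were not tested. The probe that measured Cyp2j6, on the minus strand at chr4:96192532-96192591 (mm9), is shown as the second of the 2 genes past 2-fold.
Cyp2j6 probe A_51_P506328: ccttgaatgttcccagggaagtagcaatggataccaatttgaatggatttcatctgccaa

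Of 6 tested genes of family 4, 0 were 2-fold higher and 0 were 2-fold lower on both arrays. Cyp4b1, which hydroxylates fatty acids and activates some lung toxins, read 11.26 and 11.17 in wild type and 12.22 and 12.20 in K14-caSmad1. Its log2 ratios of 0.97 and 1.03 straddled 2-fold (mean fold 2.00, limma adjusted p = 7.2e-05), and on replicate 2 alone it passed. Cyp4v3, a fatty acid hydroxylase whose human counterpart is mutated in a retinal dystrophy, had a mean ratio of 0.59. In the chromosome 17 cluster Cyp4f16 read 9.51 and 9.49 in wild type and 8.74 on both K14-caSmad1 arrays. The K14-caSmad1 channel was not above background, and on these normalized values Cyp4f16 was at least 1.69-fold lower. Cyp4f13 was at least 1.51-fold lower on the same basis. Neither bound held under every processing. Without background correction the mean log2 ratios of Cyp4f16 and Cyp4f13 were -0.50 and -0.40. With normexp on all spots they were -0.44 and -0.40. A second Cyp4f16 probe was not above background in either channel and had a mean log2 ratio of 0.07. Cyp4f15, an enzyme of the same subfamily, had a ratio of 0.15. Cyp4f39, the mouse counterpart of the human enzyme that hydroxylates ultra-long fatty acids for acylceramides, read 11.31 and 11.18 in wild type and 11.28 and 11.15 in K14-caSmad1. Its ratio of -0.03 did not pass limma's threshold (adjusted p = 0.257) and turned positive under other processing.

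**Figure D3:**
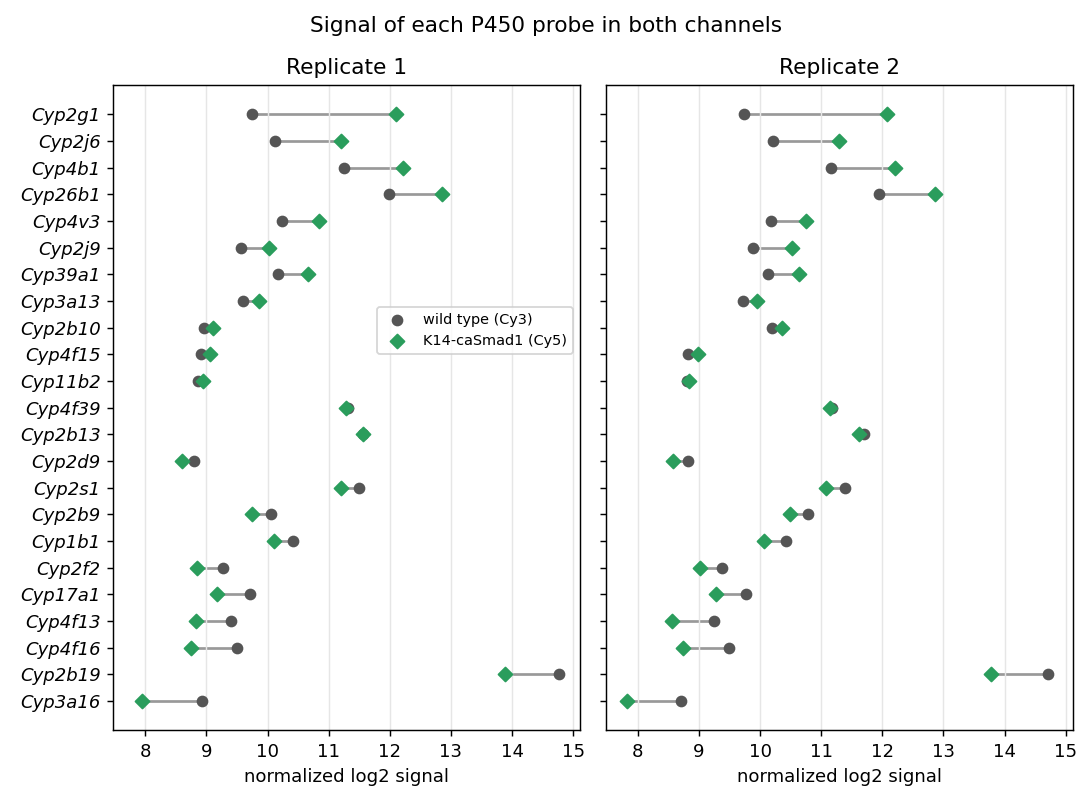
Normalized log2 signal of the probe representing each of the 23 tested P450 genes in the wild-type channel (grey circles) and the K14-caSmad1 channel (green diamonds), with a panel for each array. Signals compare channels of 1 probe and not different genes. The gap is widest for Cyp2g1 (9.74 to 12.10 on replicate 1), and Cyp2b10 and Cyp2b9 sit higher in both channels on replicate 2.

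Among enzymes of defined hormone and vitamin pathways, Cyp26b1 stood out. It clears retinoic acid. Its log2 signal was 11.98 and 11.95 in wild type and 12.86 and 12.87 in K14-caSmad1, with ratios of 0.87 and 0.92 (mean 0.90, 1.87-fold, limma adjusted p = 7.5e-05). With median centring it was 1.19 and with the scanner's processed signals 1.03. The probe, at chr6:84521952-84522011 on the minus strand (mm9), is shown as the 1 retinoic acid hydroxylase tested. Cyp26a1, of the same subfamily, was at background.
Cyp26b1 probe A_51_P501844: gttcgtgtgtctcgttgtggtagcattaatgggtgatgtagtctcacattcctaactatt

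Cyp39a1, which hydroxylates oxysterols on the way to bile acids, had a ratio of 0.50, and its second probe read 0.17. Cyp17a1, the steroid hydroxylase and lyase of androgen synthesis, had ratios of -0.53 and -0.49. Cyp11b2, the aldosterone synthase, was at 0.06 and did not pass limma's threshold (adjusted p = 0.13). No vitamin D enzyme was tested: Cyp24a1 and Cyp2r1 were at background, and 1 of 2 probes of the activating enzyme Cyp27b1 was above background in K14-caSmad1 on replicate 1 alone. That probe had log2 ratios of 2.01 on replicate 1 and 0.12 on replicate 2. The arrays thus gave no common value for Cyp27b1.

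Of family 1, Cyp1b1, a target of the aryl hydrocarbon receptor that oxidises oestrogens and polycyclic hydrocarbons, had ratios of -0.32 and -0.35, and Cyp1a1 and Cyp1a2 were at background. The mean ratio of Cyp1b1 was -0.04 with median centring. In family 3, whose members metabolise drugs and steroids, Cyp3a13 was at 0.25. Cyp3a16 had ratios of -0.99 and -0.89 but a K14-caSmad1 channel not above background, and was at least 1.09-fold lower. Cyp2d9 was at least 1.08-fold lower on the normalized values, but its log2 ratio was only -0.08 with median centring. Its probes overlap on the plus strand of chromosome 15 and share the 27 bases in capitals, yet only the second, chr15:82286799-82286858 (mm9), was above background.
Cyp2d9 probe A_51_P124133: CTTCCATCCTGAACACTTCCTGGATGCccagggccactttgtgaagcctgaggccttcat
Cyp2d9 probe A_51_P478303: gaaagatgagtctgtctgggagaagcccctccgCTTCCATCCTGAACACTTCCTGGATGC

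**Figure D4:**
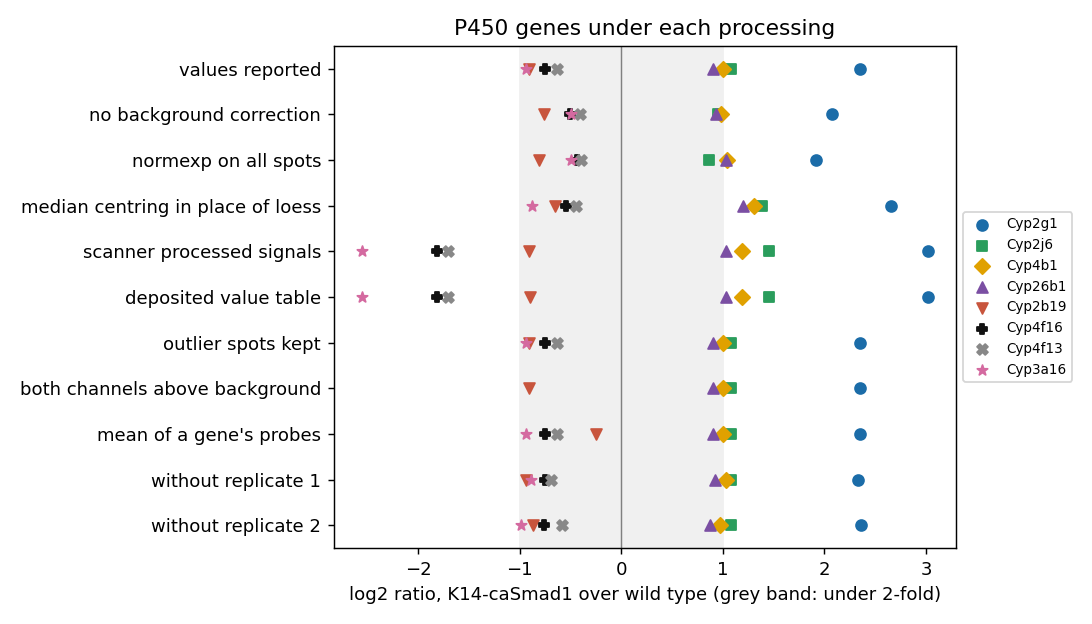
Log2 ratios of 8 P450 genes under each processing, with the grey band marking the range under 2-fold. Cyp2g1 stays between 1.92 and 3.02, whereas the points of Cyp3a16, Cyp4f16 and Cyp4f13 move most with the scanner's processed signals and the deposited table. Those 3 were not above background in K14-caSmad1, so their points are not measured folds.

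P450 enzymes work with partners, which were counted from lists of related genes. Of 11 tested electron carriers and haem-binding partners, Pgrmc2 was 2-fold higher (1.08, with another probe at 0.57) and Fdxr, the reductase of mitochondrial P450s, 2-fold lower (-1.17). Por, the reductase that feeds P450s of the endoplasmic reticulum, was at -0.44. Of 12 haem genes, Hmox2, a haem oxygenase, was 2-fold lower (-1.21). Of 10 xenobiotic receptors and partners, Nfe2l2, the oxidant-response factor, was 2-fold higher (1.28, with another probe at 0.46), and the aryl hydrocarbon receptor gene Ahr was at 0.78. Among 12 retinoid genes 0 were 2-fold higher. The retinal reductase Dhrs3 was 2-fold lower (-1.25, with another probe at -0.90).

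Of 9 tested vitamin D, sterol and steroid genes, Hsd17b2, which inactivates sex steroids, was 2-fold lower (-1.62). Of 10 epoxide hydrolase and eicosanoid genes, the arachidonate-releasing phospholipase Pla2g4a was 2-fold higher (1.87, with another probe at 1.02). The epoxide hydrolases Ephx1, Ephx2 and Ephx3 had ratios of -0.72, -0.72 and -0.60. Of 19 conjugating enzymes, Gsta1 (1.43), Nat2 (1.43) and Gstm2 (1.16) were 2-fold higher and Mgst3 (-2.59, with another probe at -2.61) and Gstk1 (-1.46) 2-fold lower. Of 11 acylceramide genes beside Cyp4f39, the fatty acid elongase Elovl4 was 2-fold higher (1.04). The medians of these 8 lists ran from -0.42 to 0.30, beside -0.03 for all genes. Over all genes tested, 13.9% were past 2-fold either way on both arrays, 4.08% higher and 9.81% lower. Whether any of the lists differed from that share was not tested. With counts this small, the genes named are no result about their lists.

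Markers of other cell types moved beside these genes. Of the hair list, made of shaft and inner root sheath genes, 15 of 15 were 2-fold lower, and their summed normalized signal was 2130792 and 2446637 in wild type and 122938 and 133303 in K14-caSmad1. None of the 15 was at background in K14-caSmad1. Of 13 measured keratinocyte markers 6 were 2-fold higher and 0 lower (summed signal 523729 and 525662 against 849846 and 911112), with Dsg3 not tested and Cdh1 at background in K14-caSmad1. By limma's adjusted p under 0.05, 9 of the 13 were higher and 3 lower, namely Cdh1 (-0.89), Ivl (-0.83) and Sfn (-0.74). Another probe of the same gene could differ, as for Trp63 (-0.78 beside 1.69) and Krt10 (2.29 beside 0.02). Of 8 measured sebaceous markers 2 were 2-fold lower, Fads2 (-3.27) and Elovl3 (-3.20), and 0 were 2-fold higher. Far2, Scd3, Awat2 and Mc5r of this list were not tested. By limma's adjusted p under 0.05, 4 of the 8 measured were lower and 2 higher, the latter Cidea (0.74) and Fasn (0.52). Their sums differed little (62227 and 63601 against 61190 and 62449), but a sum follows its brightest probes and does not show these single genes. All 6 measured melanocyte markers had ratios below 0 (6789 and 7109 against 3359 and 3198), with Kit, Mitf, Mlana and Tyrp1 at background in K14-caSmad1 and Tyr and Sox10 not tested. The part of these cells in the P450 ratios was not tested.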

How the data were processed

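RNA of primary epidermal keratinocytes was compared on 2 two-colour Agilent arrays of 60-base probes. Per the file headers, the deposited scanner files come from Agilent Feature Extraction 10.5.1.1, with probe positions on mm9. Per the file headers, the deposited intensity values are mean signals and median local backgrounds without normalization, and processed signal intensities that the software background-subtracted and dye-normalized. The deposited value table holds log10 ratios of the processed signals (largest difference 0.00397, medians 0.023 and -0.01).

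Here, 36 spots of replicate 1 that the software flagged for an uneven background were left out. Then limma 3.58.1 in R 4.3.3 applied normexp (offset 50) and loess (span 0.3, weight 0 for control spots), giving log2 ratios. Outlier spots were left out and no P450 spot was among them. Of the tested probes, 15110 had a ratio on both arrays, and a gene was represented by its brightest. The mean ratio was tested against 0 with lmFit and eBayes and Benjamini-Hochberg adjustment over 11752 genes, and a gene counted as 2-fold where each array passed 2-fold in 1 direction. Where a probe was not above background on either array of 1 channel, the change is a lower bound on loess and Aquantile values, open to dye bias. The fit was checked on simulated ratios. Array size limits the precision. Gene names were updated through RefSeq GRCm38.p6, where 24844 probes matched by accession, and P450 genes kept the name in the file. 1 member, Cyp2c44, is named Cyp2c23 there. Every P450 gene 2-fold on both arrays was named with its values, as was each other tested P450 gene, and up to 3 such genes of each related list. Nat2, Gstm2, Por, Ahr and the epoxide hydrolases fall outside that rule and were chosen after their values were seen. A gene of the retinoid list is not reported here.

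The members and lists were chosen with earlier results of these data known. The 4 promoter motifs were added after the ratios had been seen. Cell type marker lists not described in the report gave 4 of 7 fibroblast, 0 of 3 endothelial, 2 of 6 macrophage and Langerhans cell and 0 of 4 T cell markers past 2-fold either way. Of the fibroblast markers Vim (1.39) was higher and Col3a1 (-2.50), Col1a1 (-1.54) and Col1a2 (-1.35) were lower. The 3 endothelial ratios ran from -0.95 to -0.43. The 3 collagen genes, Dcn and the 3 endothelial markers were at background in K14-caSmad1. The macrophage and Langerhans cell markers past 2-fold were 1 higher and 1 lower. Alternatives changed the background correction, the normalization, the filter, the probe of a gene and the arrays used.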

Additional observations from a re-analysis of the deposited data

How the results depend on the processing

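Cyp2g1 was at least 2-fold higher under every alternative run, with mean log2 ratios from 1.92 to 3.02. Keeping outlier spots, both changes of the filter and the mean of a gene's probes all left it at 2.35, the value reported. Over single P450 genes, 220 of the values under an alternative kept their sign and their side of 2-fold, 14 passed 2-fold newly, 2 (both of Cyp2j6) fell below it and 11 changed sign. Part of the 220 could not have moved. Keeping outlier spots, dropping the filter or requiring both channels repeated the reported ratio of every P450 gene present. The mean of a gene's probes differed for Cyp2b19 and Cyp39a1 only. The scanner's signals and the deposited table hold nearly the same values. The 11 that changed sign were small values. Cyp2b13 was 0.0193 without background correction, 0.0708 with normexp on all spots, 0.262 with median centring, 0.0197 with the scanner's processed signals and 0.0199 in the authors' deposited table. In the same order Cyp4f39 was 0.0204, 0.0667, 0.278, 0.0539 and 0.0498. Cyp2s1 was 0.0111 with median centring. The P450 median was 0.0204, 0.0667, 0.262, 0.0539 and 0.0498 in that order, 0.159 with both channels required and -0.0235 to 0.0401 with 1 array left out.

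P450 genes 2-fold higher numbered 1 without background correction, 4 under median centring, and 4 for both the processed signals and the deposited table, where Cyp4b1 and Cyp26b1 were added. With normexp on all spots the count was 2, with Cyp4b1 in place of Cyp2j6. Those 2-fold lower numbered 3 with the scanner's signals and 3 in the deposited table, Cyp3a16, Cyp4f16 and Cyp4f13, none of them above background in K14-caSmad1, so these are not measured folds. Without the filter 80 P450 genes were tested. Over all genes, 767 were 2-fold lower without background correction. With normexp on all spots 776 passed either way, 303 higher and 473 lower. Median centring gave 1110 higher. The scanner's signals gave 3133 either way, 1256 higher and 1877 lower, and 3129, 1253 and 1876 were the counts in the deposited table. By limma 3269 passed with normexp on all spots and 17755 without the filter, against 10239.

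Counts past 2-fold in the related lists also moved. Without background correction, 1 electron partner and 2 eicosanoid genes passed. With normexp on all spots the counts were 1 electron partner, 0 haem, 1 retinoid and 0 vitamin D and sterol genes. Median centring gave 3 xenobiotic, 1 retinoid, 3 eicosanoid and 2 acylceramide genes. The scanner's signals and the deposited table both gave 1 electron partner, 5 haem, 2 xenobiotic, 4 retinoid, 2 vitamin D and sterol, 2 eicosanoid and 2 acylceramide genes. The mean of a gene's probes gave 1 electron partner and 0 xenobiotic genes, and leaving out 1 array 1 to 2 vitamin D and sterol genes. Why the counts moved was not tested. No separate paired analysis was run, because both groups of a replicate share 1 array and each ratio is already paired within it. Signal over background limits the dim genes, and the 2 arrays without a dye swap limit every value.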
